A study of Mus musculus with 15 samples.

Results

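The insulin-like growth factor axis was measured in the mouse olfactory bulb through 16 array probes annotated to 10 genes: the ligands Igf1 and Igf2, the receptors Igf1r and Igf2r, and the binding protein genes Igfbp2, Igfbp3, Igfbp4, Igfbp5, Igfbp6 and Igfbp7. The genes were chosen by name, and every probe that carried one of these symbols was taken, among 55681 probes in all. These genes, and the gene lists used below, were chosen with earlier results of these data known. After dim probes were left out, 9 of the 10 genes were tested among 27441 genes, and Igfbp7 was not, because its single probe did not clear the background on any of the 15 arrays. Corticotropin-releasing hormone (CRH) is a peptide known from the stress response, and CRHR1 is its receptor; the study compared bulbs with altered strength of CRH signalling. In the active CRHR1 group, CRHR1-Cre mice of strain C57Bl/6 received a Cre-dependent (flex) adeno-associated virus that encodes (CA)CRHR1, and the labels call this the high signalling group. In the knockout group, CRHR1-/- mice of strain 129S4/SvJae received the Cre-dependent GFP virus, and the labels call it the low signalling group. In the Cre GFP group, CRHR1-Cre mice of strain C57Bl/6 received the same GFP virus and served as a stand-in for wild type. Each group held 5 males of 6 to 8 weeks, each injected with 500 nL of virus and killed 2 weeks later for RNA of the whole bulb. Every mouse therefore carried a virus, and both viruses depend on Cre, which the labels name only for the active CRHR1 and Cre GFP groups. The names CRHR1-Cre and (CA)CRHR1 follow the treatment protocol, while the titles shorten them to CRHR-Cre and (CA)CRHR. The knockout mice differ from the others in strain as well as in the receptor, and these cannot be told apart.

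IGF-1 and IGF-2 are small peptides that signal through the tyrosine kinase receptor IGF-1R, while the IGF-2 receptor binds IGF-2 at the cell surface and carries it to lysosomes. The binding proteins hold the ligands in the extracellular space, where they can block or prolong access to the receptor until proteases cut them. In the brain the axis is known for the growth and survival of neurons and glia, and in the olfactory bulb for the placement of sensory axons and the upkeep of newly added interneurons.

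RNA was hybridised to 15 1-colour Agilent arrays, 1 per mouse. A level here is log2 of the processed signal minus the array's 75th percentile, so 0 marks the 75th percentile, and levels of different probes are not comparable with each other. Between 58.7% and 66.9% of probes were well above background per array, no spot was saturated, and arrays correlated with those of the same group at a mean of 0.985 to 0.993. The Crhr1 probe lay between 3.57 and 3.83 in active CRHR1 bulbs, between 2.99 and 3.32 in knockout bulbs and between 3.48 and 3.86 in Cre GFP bulbs. It was lower in knockout than in Cre GFP bulbs (log2 change -0.47 ± 0.09 SE, limma adjusted p = 0.0146), and the part of the gene removed in the knockout is not given in the sources used here. It did not pass the test in active CRHR1 against Cre GFP bulbs (0.09 ± 0.09, adjusted p = 0.544). The arrays came from 2 slides: slide 1 held all 5 knockout arrays and 3 Cre GFP arrays, and slide 2 held all 5 active CRHR1 arrays and 2 Cre GFP arrays. No slide held both active CRHR1 and knockout arrays, so that comparison and the slide can be separated only through the Cre GFP arrays. In whole-bulb RNA, fewer cells of a type and less RNA per cell cannot be told apart.

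The probes that carry the results are shown by their opening bases, because a gene's value here is the value of 1 stretch of its transcript. Igfbp5 was read by a probe at mm9 chr1:72904829-72904888 on the minus strand, and Igfbp2 by probes at chr1:72898677-72898736 and chr1:72898813-72898872 on the plus strand. The sequence is whole for the first Igfbp2 probe, which reaches the stop codon of the open frame, given in capitals, and so lies in coding sequence. The others are the first 30 bases.
Igfbp5: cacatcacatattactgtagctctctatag
Igfbp2, coding probe: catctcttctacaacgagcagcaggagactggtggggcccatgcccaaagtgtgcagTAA
Igfbp2, downstream probe: aggagttcccagttttgacacatgtattta
Igfbp3: gcagttttccaaaaacacagatttcttttc
Igf1, A_55_P2085979: aaccattaaaaacatgccaccaagaccttc
Igf1, A_55_P2085984: cctaccaaataacaataataAGTCCAATAA
Igf1, A_55_P2031631: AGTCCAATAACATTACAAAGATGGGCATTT
Igf1, A_55_P2031636: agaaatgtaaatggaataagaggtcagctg
Igf1, A_55_P2085974: ctcctgattgtatttgaagtggttattcaa
In the Igf1 probes the capitals mark bases within the 40 that A_55_P2085984 and A_55_P2031631 share, so these 2 probes are not separate readings of the gene. The Igf1 probes are listed in their order along the transcript.

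Calls fell on 4 binding proteins and 1 ligand, and all of them in comparisons with the knockout bulbs. In knockout against Cre GFP bulbs, 3 of the 9 tested genes passed the test (limma, Benjamini-Hochberg adjusted p under 0.05 over all 27441 genes), against 3.33% of all genes: Igfbp5 and Igfbp2 were higher, where 1.95% of all genes were called higher, and Igfbp3 was lower, where 1.38% were called lower. In active CRHR1 against knockout bulbs 4 of 9 passed, against 25.7% of all genes, and all 4 were lower, where 16.2% of all genes were called lower and 9.43% higher: Igfbp5, Igfbp2, Igfbp6 and Igf1. Between active CRHR1 and Cre GFP bulbs 0 of 9 passed by limma, against 8.46% of all genes (3.9% higher and 4.56% lower), while 4 of 9 had an unadjusted p under 0.05, against 27% of all genes. The median log2 change of the 9 genes was 0.11 in knockout against Cre GFP bulbs, -0.36 in active CRHR1 against knockout bulbs and -0.10 in active CRHR1 against Cre GFP bulbs, beside medians over all genes of 0.005, -0.07 and -0.06. These 3 comparisons share groups, so a low or high group enters 2 of them.

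**Figure D1:**
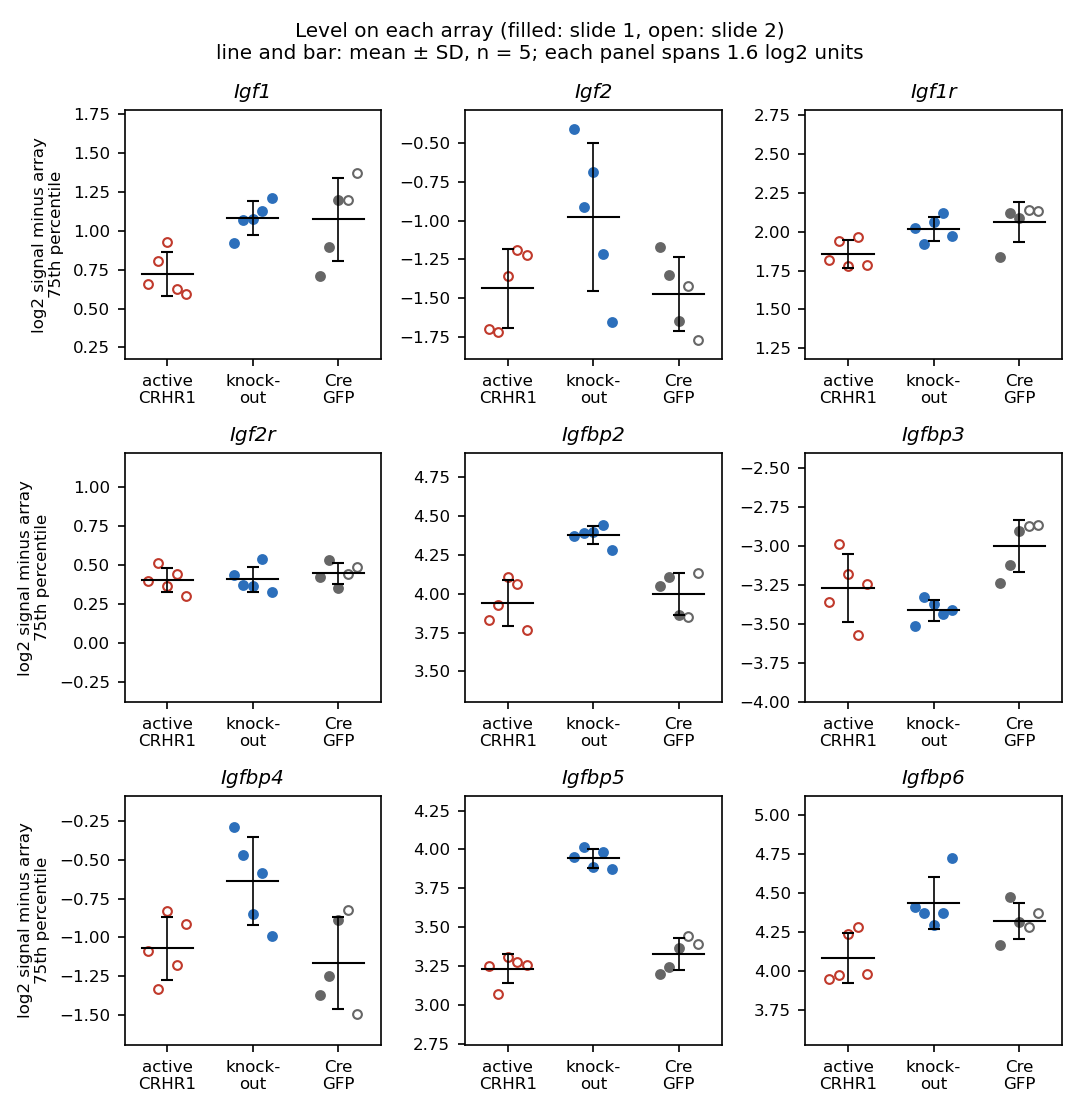
Level of each tested gene on each of the 15 arrays (vertical axis: log2 processed signal minus the array's 75th percentile; each panel spans the same width of 1.6), with filled points for slide 1, open points for slide 2, and lines and bars for the mean and SD of 5 arrays. The knockout arrays stand above every other array for Igfbp5, between 3.88 and 4.02, and for Igfbp2, between 4.28 and 4.44.

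**Figure D2:**
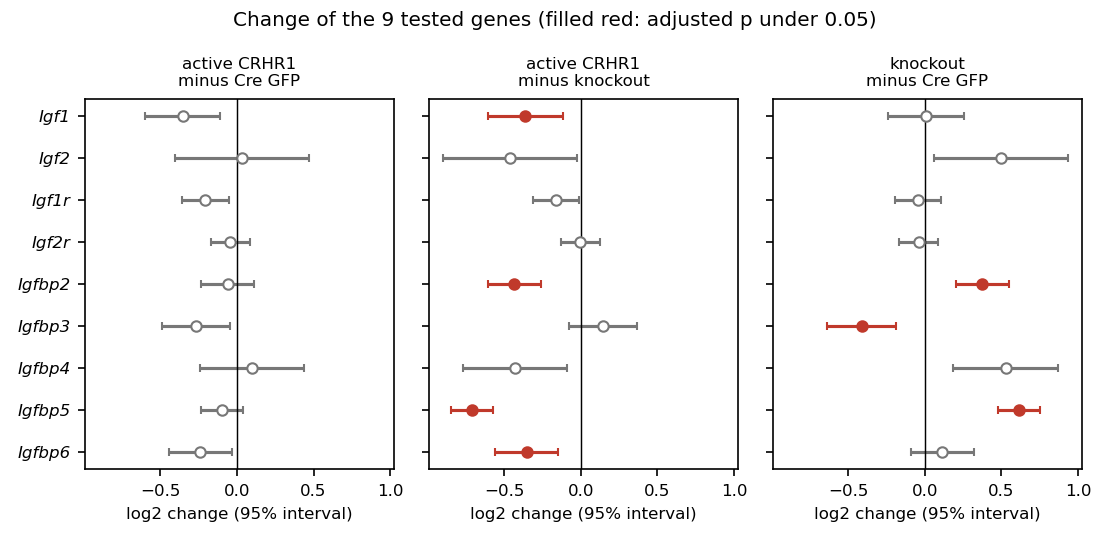
Log2 change of the 9 tested genes in each comparison (horizontal axis), with 95% intervals from limma over all 15 arrays and filled red points where the adjusted p was under 0.05. Igfbp5 has the change farthest from 0 in both comparisons with the knockout group, -0.71 in active CRHR1 against knockout and 0.61 in knockout against Cre GFP.

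Among the ligands, Igf1, the peptide that is the main activator of IGF-1R, had its lowest mean in active CRHR1 bulbs. The probe nearest the 3′ end, A_55_P2085974, which had the highest mean signal and stood for the gene, read 0.65, 0.81, 0.93, 0.62 and 0.59 in active CRHR1 bulbs, 0.92, 1.07, 1.08, 1.13 and 1.21 in knockout bulbs, and 0.71, 0.90, 1.20, 1.20 and 1.37 in Cre GFP bulbs. The highest active CRHR1 array lay just above the lowest knockout array, and the Cre GFP arrays spread over both other groups. Igf1 was lower in active CRHR1 than in knockout bulbs (-0.36 ± 0.11 SE, adjusted p = 0.0354). Against Cre GFP bulbs the change in active CRHR1 bulbs was about as large and did not pass (-0.35 ± 0.11, adjusted p = 0.0726), and averaging the gene's kept probes gave -0.20 (adjusted p = 0.189). Knockout and Cre GFP bulbs had a difference of 0.01 with a 95% interval from -0.24 to 0.25. The 2 Cre GFP arrays of slide 2 read 1.20 and 1.37, and the 3 of slide 1 read 0.71, 0.90 and 1.20. With slide as a fixed block the change was -0.56 against Cre GFP bulbs (adjusted p = 0.0328) and -0.71 against knockout bulbs (adjusted p = 0.0503), and within slide 2 it was -0.56 against Cre GFP bulbs (adjusted p = 0.0668). Without Cre GFP replicate 1, the change in active CRHR1 against Cre GFP bulbs was -0.44 (adjusted p = 0.0156), and without knockout replicates 2, 4 or 5 or active CRHR1 replicates 1, 4 or 5, one at a time, the change in active CRHR1 against knockout bulbs was no longer called (adjusted p 0.0525 to 0.0825).

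Of the 5 Igf1 probes, 4 passed the test in active CRHR1 against knockout bulbs and the most upstream one did not. All lie on mm9 chromosome 10, plus strand: A_55_P2085979 at chr10:87378456-87378515, A_55_P2085984 at chr10:87393561-87393620, A_55_P2031631 at chr10:87393581-87393640, A_55_P2031636 at chr10:87395924-87395983 and A_55_P2085974 at chr10:87399581-87399640. The files assign the first to a different RefSeq transcript record from the other 4. The 4 downstream probes changed by -0.43, -0.42, -0.27 and -0.36, in that order, in active CRHR1 against knockout bulbs, with adjusted p over all kept probes of 0.0333, 0.0252, 0.0471 and 0.0353. The upstream probe A_55_P2085979 read -0.04 ± 0.08 (adjusted p = 0.755). Its arrays read -1.16, -0.96, -1.10, -0.97 and -1.04 in active CRHR1 bulbs, -1.22, -1.05, -1.09, -0.84 and -0.84 in knockout bulbs, and -1.05, -1.13, -0.98, -1.06 and -0.97 in Cre GFP bulbs, and all 3 groups overlapped. The difference of the 3′-most probe minus the upstream probe, taken within each array, read 1.81, 1.77, 2.02, 1.59 and 1.63 in active CRHR1 bulbs, 2.14, 2.12, 2.17, 1.97 and 2.06 in knockout bulbs, and 1.76, 2.03, 2.17, 2.26 and 2.34 in Cre GFP bulbs. It averaged 1.77 ± 0.17 in active CRHR1 bulbs, 2.09 ± 0.08 in knockout bulbs and 2.11 ± 0.23 in Cre GFP bulbs (SD, n = 5 each). This pair of probes was chosen after their values were seen, so the difference is given with no test. The highest active CRHR1 array lay above the lowest array of each other group.

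**Figure D3:**
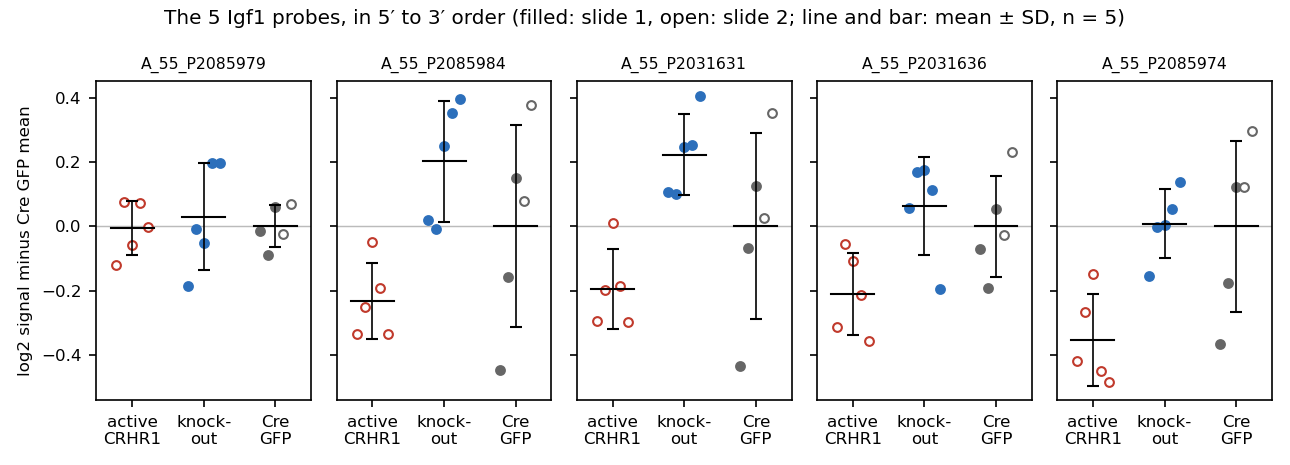
The 5 Igf1 probes in 5′ to 3′ order, each array's log2 signal minus that probe's Cre GFP mean (vertical axis), with filled points for slide 1, open points for slide 2, and the mean and SD of 5 arrays. The 4 downstream probes have their lowest mean in active CRHR1 bulbs, and the leftmost, A_55_P2085979, has group means within 0.04 of one another.

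Igf2, the growth factor best known from fetal growth and expressed from the paternal allele in most tissues, spread widely among knockout bulbs. Its probe, at mm9 chr7:149839661-149839720 on the minus strand, read -1.70, -1.71, -1.36, -1.19 and -1.22 in active CRHR1 bulbs, -0.41, -0.92, -0.69, -1.21 and -1.65 in knockout bulbs, and -1.17, -1.35, -1.65, -1.42 and -1.77 in Cre GFP bulbs. Of the 5 knockout arrays, 3 stood above every array of the other groups, and the other 2 lay within their range. The change was 0.50 ± 0.20 in knockout against Cre GFP bulbs (adjusted p = 0.195), -0.46 ± 0.20 in active CRHR1 against knockout bulbs (adjusted p = 0.103) and 0.04 ± 0.20 in active CRHR1 against Cre GFP bulbs (adjusted p = 0.93). The first interval, 0.06 to 0.93, is wide, and without knockout replicate 5 the change in active CRHR1 against knockout bulbs was -0.63 (adjusted p = 0.028). That change was -0.25 with slide as a fixed block (adjusted p = 0.675), and -0.32 without knockout replicate 1 (adjusted p = 0.218).

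The receptors did not pass the test in any comparison. Igf1r, the kinase receptor for both ligands, read 1.82, 1.94, 1.78, 1.97 and 1.79 in active CRHR1 bulbs, 2.02, 1.92, 2.06, 2.12 and 1.97 in knockout bulbs, and 1.84, 2.12, 2.08, 2.14 and 2.14 in Cre GFP bulbs. The single low Cre GFP array, replicate 1, lay among the active CRHR1 values, while the other 4 lay above them. The change was -0.21 ± 0.07 in active CRHR1 against Cre GFP bulbs (adjusted p = 0.0864), and -0.26 without that array (adjusted p = 0.0182). It was -0.16 ± 0.07 in active CRHR1 against knockout bulbs (adjusted p = 0.102) and -0.04 ± 0.07 in knockout against Cre GFP bulbs (adjusted p = 0.767). Igf2r, the receptor that clears IGF-2 and carries lysosomal enzymes, stayed within a narrow range. It read from 0.30 to 0.51 in active CRHR1 bulbs, from 0.33 to 0.54 in knockout bulbs and from 0.35 to 0.53 in Cre GFP bulbs, with all 3 groups overlapping. Its 95% intervals were -0.13 to 0.12 in active CRHR1 against knockout bulbs, -0.17 to 0.09 in knockout against Cre GFP bulbs and -0.17 to 0.08 in active CRHR1 against Cre GFP bulbs.

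Igfbp5, a secreted carrier that also binds extracellular matrix, had the smallest adjusted p of the axis. It read 3.25, 3.07, 3.31, 3.28 and 3.25 in active CRHR1 bulbs, 3.95, 4.02, 3.89, 3.98 and 3.88 in knockout bulbs, and 3.20, 3.25, 3.37, 3.44 and 3.39 in Cre GFP bulbs. Every knockout array lay above every other array, and the active CRHR1 and Cre GFP arrays overlapped. Igfbp5 was 1.53 times as high in knockout as in Cre GFP bulbs (log2 change 0.61 ± 0.06, adjusted p = 0.000244). In active CRHR1 bulbs it stood at 0.611 times the knockout level (-0.71 ± 0.06, adjusted p = 3.38e-05). By p it ranked 19 and 22 of 27441 genes in these comparisons. Between active CRHR1 and Cre GFP bulbs the change was -0.10 with an interval from -0.24 to 0.04 (adjusted p = 0.346). Within slide 1, where 5 knockout and 3 Cre GFP arrays lay side by side, the change was 0.67 (adjusted p = 0.0191).

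Igfbp2, the most abundant binding protein of cerebrospinal fluid and a product of glia, followed the same order with smaller changes. Its coding probe read 3.83, 3.93, 4.11, 4.06 and 3.77 in active CRHR1 bulbs, 4.37, 4.39, 4.39, 4.44 and 4.28 in knockout bulbs, and 4.05, 4.11, 3.86, 3.85 and 4.13 in Cre GFP bulbs. The downstream probe read 2.97, 3.14, 3.23, 3.17 and 2.97 in active CRHR1 bulbs, 3.49, 3.49, 3.51, 3.59 and 3.42 in knockout bulbs, and 3.08, 3.17, 3.05, 2.98 and 3.25 in Cre GFP bulbs. On both probes the knockout arrays stood above all others without overlap. By the coding probe, which stood for the gene, Igfbp2 was 1.30 times as high in knockout as in Cre GFP bulbs (0.37 ± 0.08, adjusted p = 0.0235), and lower in active CRHR1 than in knockout bulbs (-0.44 ± 0.08, adjusted p = 0.00283). The downstream probe gave 0.39 ± 0.07 and -0.40 ± 0.07 (adjusted p over all kept probes 0.00827 and 0.00197). Against Cre GFP bulbs the active CRHR1 change was -0.06 with an interval from -0.23 to 0.11. The calls of the coding probe did not hold once slide entered as a fixed block, with 0.37 in knockout against Cre GFP bulbs (adjusted p = 0.0846) and -0.42 in active CRHR1 against knockout bulbs (adjusted p = 0.135), nor within slide 1, with 0.37 (adjusted p = 0.145). Without knockout replicates 2 or 4, or Cre GFP replicates 3 or 4, one at a time, the first change stayed between 0.34 and 0.37 and its adjusted p lay between 0.052 and 0.0636.

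Igfbp2 and Igfbp5 are next to each other on chromosome 1 and point towards each other, with 5956 bases between their 3′ probes. Of the 16 nearest tested genes, 8 on either side, 1 passed in knockout against Cre GFP bulbs, where 3.33% of all genes did: Pinc, a long non-coding RNA, was higher by 1.79 ± 0.32 (adjusted p = 0.00912). Of the same 16 genes 4 passed in active CRHR1 against knockout bulbs, a share near the 25.7% of all genes, and all 4 were lower: Pinc (-1.37), Arpc2 (-0.26), Pnkd (-0.44) and Tmbim1 (-0.29). Between active CRHR1 and Cre GFP bulbs their changes lay between -0.32 and 0.42, with adjusted p of 0.0589 or more. The immediate neighbour on the Igfbp2 side, Rpl37a, and on the Igfbp5 side, 1700027A15Rik, did not pass in any of these comparisons.

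**Figure D4:**
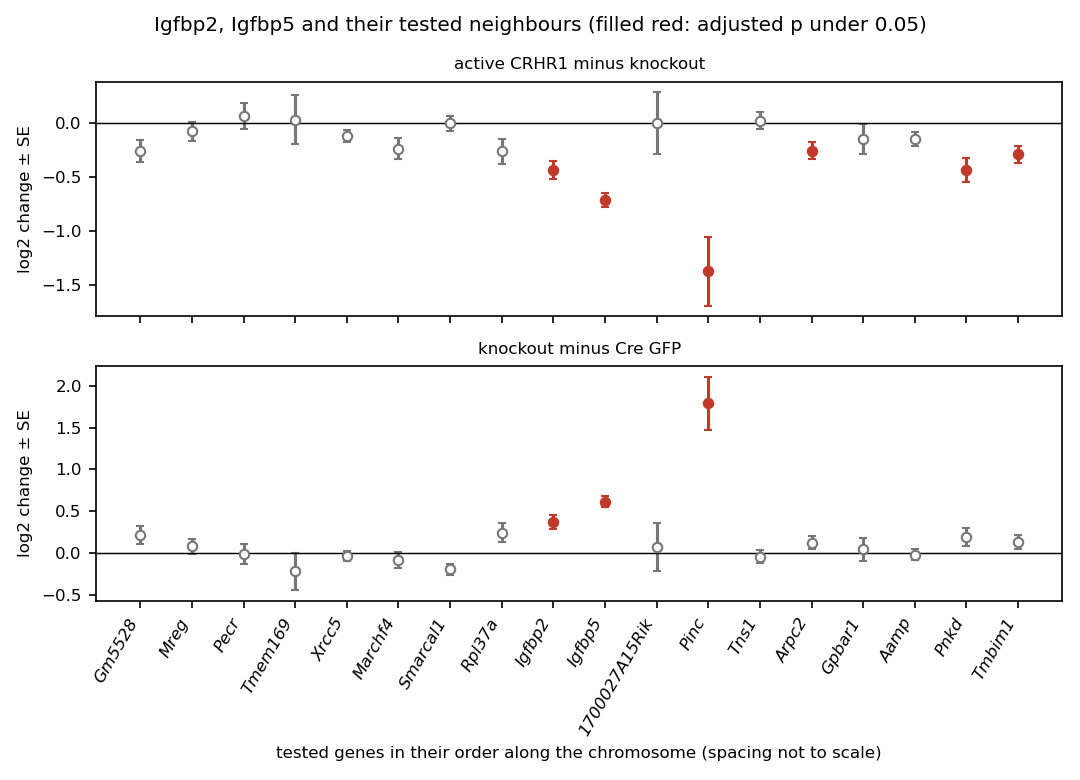
Log2 change with its SE (vertical axis) for Igfbp2, Igfbp5 and 8 tested genes on either side, in gene order along the chromosome and not to scale, in active CRHR1 minus knockout above and knockout minus Cre GFP below; filled red points have an adjusted p under 0.05. Igfbp2, Igfbp5 and Pinc are called in both panels.

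Because Igfbp2 and Igfbp5 are adjacent and were both higher in knockout bulbs, the 250 bases before each start are given, from RefSeq on GRCm38.p6, with motif matches in capitals. The Igfbp5 window is chr1:72874866-72875115 on the minus strand, and the Igfbp2 window is chr1:72824230-72824479 on the plus strand.
Igfbp5: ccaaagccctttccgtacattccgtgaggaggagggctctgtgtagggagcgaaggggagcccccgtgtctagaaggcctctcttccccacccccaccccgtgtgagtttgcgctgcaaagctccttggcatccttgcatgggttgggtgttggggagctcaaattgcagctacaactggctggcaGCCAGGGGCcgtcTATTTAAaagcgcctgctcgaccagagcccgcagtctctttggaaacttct
Igfbp2: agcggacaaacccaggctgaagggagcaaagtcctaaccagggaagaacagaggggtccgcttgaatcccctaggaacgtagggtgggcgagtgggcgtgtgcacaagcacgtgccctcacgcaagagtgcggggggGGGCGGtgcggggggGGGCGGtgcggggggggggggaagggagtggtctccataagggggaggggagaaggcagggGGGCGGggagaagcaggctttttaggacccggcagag
The motifs were searched on both strands in 32851 promoter windows of this length. The TATA box TATAAA is in 12.4% of them and the variant TATTTAA in 4.2%. The Sp1 motif GGGCGG is in 32.7% and the AP-2 motif GCCNNNGGC in 13.7%. The core TGACG of the cAMP response element is in 17.8%, and the whole element TGACGTCA in 1.5%. Every window with TGACGTCA also holds TGACG, and the matches printed do not overlap. The Igfbp5 window holds 1 TATTTAA, 51 bases before the start, and 1 GCCNNNGGC, 64 bases before it. The Igfbp2 window holds GGGCGG 3 times, 113, 98 and 37 bases before the start. RefSeq lists a second Igfbp2 window, not printed, which holds none of these motifs. The letters TGACGTCA are in 0 of the 14 windows of the 10 genes, and TGACG is in 2 of them.

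Igfbp3, the main carrier of IGF in blood serum, was the one binding protein lower in knockout bulbs. Its probe, at mm9 chr11:7106594-7106653 on the minus strand, was dim but well above background on all 15 arrays, with processed signals between 62.3 and 141. It read -3.36, -2.99, -3.18, -3.57 and -3.24 in active CRHR1 bulbs, -3.51, -3.33, -3.37, -3.44 and -3.41 in knockout bulbs, and -3.24, -3.12, -2.91, -2.87 and -2.87 in Cre GFP bulbs. The knockout arrays all lay below the Cre GFP arrays, and the active CRHR1 arrays overlapped both. The change was -0.41 ± 0.10 in knockout against Cre GFP bulbs (adjusted p = 0.0445) and -0.27 ± 0.10 in active CRHR1 against Cre GFP bulbs (adjusted p = 0.119). Between active CRHR1 and knockout bulbs it was 0.14 ± 0.10 (adjusted p = 0.302), and -0.07 with slide as a fixed block. The 2 Cre GFP arrays of slide 2 read the highest of all, and the change of knockout against Cre GFP bulbs was -0.33 with slide as a fixed block (adjusted p = 0.192) and within slide 1 (adjusted p = 0.241). With normexp background correction it was -0.26 (adjusted p = 0.0643). Of the 15 fits that left out 1 array, 3 made the call: those without Cre GFP replicate 1 and without active CRHR1 replicate 2 or 4. A second Igfbp3 probe was well above background on 1 Cre GFP array and on no array of the other groups, and was not tested.

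Igfbp6, a carrier with a preference for IGF-2, had its lowest mean in active CRHR1 bulbs. It read 3.95, 3.97, 4.24, 4.28 and 3.98 in active CRHR1 bulbs, 4.41, 4.37, 4.30, 4.37 and 4.72 in knockout bulbs, and 4.17, 4.48, 4.31, 4.28 and 4.37 in Cre GFP bulbs. The active CRHR1 and knockout arrays did not overlap, by a gap between 4.28 and 4.30, and the Cre GFP arrays overlapped both. Igfbp6 was lower in active CRHR1 than in knockout bulbs (-0.35 ± 0.10, adjusted p = 0.0192). It did not pass in active CRHR1 against Cre GFP bulbs (-0.24 ± 0.10, adjusted p = 0.13) or in knockout against Cre GFP bulbs (0.11 ± 0.10, adjusted p = 0.542). With slide as a fixed block the called change was -0.36 (adjusted p = 0.228), and without active CRHR1 replicate 1 it was -0.32 (adjusted p = 0.0514).

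Igfbp4, a carrier that releases IGF when the protease PAPP-A cuts it, had its highest mean in knockout bulbs. It read -1.09, -1.33, -0.83, -1.18 and -0.91 in active CRHR1 bulbs, -0.29, -0.47, -0.85, -0.59 and -0.99 in knockout bulbs, and -1.37, -1.25, -0.89, -0.83 and -1.49 in Cre GFP bulbs. Of the knockout arrays 3 lay above all arrays of the other groups, and the other 2 lay among them. The change was 0.53 ± 0.16 in knockout against Cre GFP bulbs (adjusted p = 0.0857), -0.43 ± 0.16 in active CRHR1 against knockout bulbs (adjusted p = 0.0589) and 0.10 ± 0.16 in active CRHR1 against Cre GFP bulbs (adjusted p = 0.726). Without knockout replicate 5 the change in active CRHR1 against knockout bulbs was -0.52 (adjusted p = 0.0398), and without knockout replicate 3 it was -0.48 (adjusted p = 0.0478). Igfbp4 and Igfbp3 share mm9 chromosome 11 with Crhr1, and their probes lie 5.12 and 96.9 megabases from the Crhr1 probe. Igfbp7, a relative with weak binding of IGF known from vessels, had processed signals between 2.79 and 9.17, not well above background in any group, and no difference is given for it.

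Counted by non-overlap, 3 of the 9 genes had knockout arrays that all lay on one side of the Cre GFP arrays (Igfbp2, Igfbp3 and Igfbp5), against 5.58% of all genes. The active CRHR1 and knockout arrays were apart for 3 of 9 (Igfbp2, Igfbp5 and Igfbp6), against 18.6% of all genes. The active CRHR1 and Cre GFP arrays were apart for 0 of 9, against 10.4% of all genes.

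Outside the 10 genes, 46 genes that act on the axis or below it were listed and 42 tested; Igfals, Stc1, Igf2bp1 and Igf2bp3 were too dim. In knockout against Cre GFP bulbs 5 passed (11.9%), against 3.33% of all genes. Pappa2, a protease that cuts IGFBP-5 and IGFBP-3, was higher by 0.77 ± 0.13 (adjusted p = 0.0083). Adamts1, a matrix protease (0.44, adjusted p = 0.0326), and Ghr, the growth hormone receptor (0.36, adjusted p = 0.0296), were also higher. Plagl1, an imprinted zinc finger gene (-0.39, adjusted p = 0.0244), and Rps6kb1, the S6 kinase below mTOR (-0.34, adjusted p = 0.0292), were lower. The median change of the 42 was -0.01.

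Of the 42, 7 passed in active CRHR1 against Cre GFP bulbs (16.7%), against 8.46% of all genes, with a median of -0.08. Stc2, a stanniocalcin that inhibits PAPP-A, was higher by 0.82 ± 0.16 (adjusted p = 0.00553), and Insrr, an orphan relative of the insulin receptor, by 0.44 (adjusted p = 0.0274). Sst, the peptide somatostatin, was lower (-0.71 ± 0.16, adjusted p = 0.0157). Igfbpl1, a binding protein relative found in young neurons, was lower (-0.31 ± 0.09, adjusted p = 0.0481). Inside the cell, the adaptor Grb2 (-0.37, adjusted p = 0.0287) and the kinase Pdpk1 (-0.29, adjusted p = 0.0286) were lower.

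Between active CRHR1 and knockout bulbs 19 of the 42 passed (45.2%), 4 higher and 15 lower, with a median of -0.06. Of all genes 25.7% passed there, 9.43% higher and 16.2% lower. The 8 with the smallest p were Ghr (-0.52), Sst (-1.02), Pappa2 (-0.84), Igfbpl1 (-0.52), Ghrh, growth hormone-releasing hormone (-0.66), Grb2 (-0.44) and Adamts1 (-0.42), all lower, and Rps6kb1 (0.38), which was higher. Their adjusted p lay between 0.00106 and 0.0128. All 4 genes of the hormone side, Ghr, Ghrh, Sst and Ins1, were lower here. Of the 16 genes of the signalling cascade inside the cell, 6 were lower and 1 higher; of the 10 receptors, substrates and adaptors, 1 was lower.

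The genes whose levels ran most like each member over the 15 arrays were found among 17627 tested genes with a symbol, by Pearson r, and r within groups was taken on deviations from group means. Igfbp5 was closest to Ccnd2, a D-type cyclin (r = 0.977, within groups 0.777), followed by Il25, Arl5a, Aldh1a7 and Gpr21 (r between 0.951 and 0.970). Within groups r was 0.754 for Il25 but only 0.404 for Arl5a, 0.358 for Aldh1a7 and 0.423 for Gpr21. Igfbp2 was closest to Extl1 (r = 0.953, within groups 0.828), followed by C8g, Dnlz, Plin1 and Pld6. Igf1 was closest to Tmem200a (r = 0.930, within groups 0.866), Sec23a, Gm5, Prkar1a and Bzw2, and Igf2 to Fam131c (r = 0.880, within groups 0.880), Dhrs4, Ebf1, Lpcat3 and Eln. The arrays share slides and group means, and these are descriptions. Igfbp2 and Igfbp5 had r = 0.841 over the arrays and -0.05 within groups.

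Markers of several cell types moved with the same groups. Of all genes, 1.95% were called higher and 1.38% lower in knockout than in Cre GFP bulbs. The shares were 9.43% higher and 16.2% lower in active CRHR1 against knockout bulbs, and 3.9% higher and 4.56% lower in active CRHR1 against Cre GFP bulbs. Of 6 pericyte and smooth muscle markers, 4 were higher in knockout than in Cre GFP bulbs: Rgs5 (1.03), Kcnj8 (0.96), Abcc9 (0.95) and Pdgfrb, which was outside the 3 of smallest p (0.31). The mean level of that list lay between -1.16 and -0.76 in active CRHR1 bulbs, between -0.71 and -0.50 in knockout bulbs and between -1.39 and -1.12 in Cre GFP bulbs. Of 6 olfactory ensheathing glia markers, 3 were higher in knockout than in Cre GFP bulbs, among them Ngfr (0.75) and Npy (0.53), and 6 of 6 were lower in active CRHR1 than in knockout bulbs. Their mean lay between 3.59 and 3.78 in active CRHR1 bulbs, between 4.12 and 4.37 in knockout bulbs and between 3.75 and 4.02 in Cre GFP bulbs. The group means of Igfbp5 and Igfbp2 stood in the same order. Of 8 meningeal and perivascular fibroblast markers, 2 were higher in knockout than in Cre GFP bulbs, Col3a1 (0.77) and Lum (0.72). Slc6a13 (0.06) and Aldh1a2 (0.12) did not pass there, nor did Slc47a1, outside the 3 of smallest p, which went the other way (-0.41, adjusted p = 0.131). In active CRHR1 against knockout bulbs 3 of the 8 were lower and Slc47a1 was higher (0.51, adjusted p = 0.021). The fibroblast list's mean lay between 1.20 and 1.75 in active CRHR1 bulbs, between 1.74 and 2.19 in knockout bulbs and between 1.20 and 1.74 in Cre GFP bulbs.

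The microglia lists had their highest means in active CRHR1 bulbs, where Igf1 had its lowest mean, but their members did not all move one way. Of 8 microglia markers, 5 were higher in active CRHR1 than in Cre GFP bulbs, with Aif1 at 1.89, and of 8 markers of activated microglia and macrophages, 4 were higher, with Cst7 at 5.42 and Itgax at 2.82. The mean of the activated list lay between 1.09 and 1.75 in active CRHR1 bulbs, between 0.20 and 0.69 in knockout bulbs and between -0.20 and 0.31 in Cre GFP bulbs. Outside the 3 of smallest p, P2ry12, a purine receptor of resting microglia, was lower in active CRHR1 than in knockout bulbs (-0.54, adjusted p = 0.00762), as was Apoe, a lipid carrier on the activated list (-0.31, adjusted p = 0.0296). The monocyte and neutrophil list had a median over arrays of -1.11 in active CRHR1 bulbs, -1.19 in knockout bulbs and -2.75 in Cre GFP bulbs. On that list the active CRHR1 and knockout arrays overlapped. Of its 4 tested genes, Plac8 (3.30, adjusted p = 0.000335) and Ccr2 (1.92, adjusted p = 0.0393) were higher in active CRHR1 than in Cre GFP bulbs. Ccr2 was well above background on 4 active CRHR1, 3 knockout and 0 Cre GFP arrays. It passed the filter only through the active CRHR1 group, so its call is not independent of the filter. Against knockout bulbs Plac8 was higher in active CRHR1 bulbs (2.66, adjusted p = 0.000896). The means of S100a8 (-0.96) and S100a9 (-1.09) were lower in that comparison and did not pass. The T cell list lay between -3.64 and -1.33 in active CRHR1 bulbs, between -4.48 and -2.84 in knockout bulbs and between -4.81 and -2.62 in Cre GFP bulbs, and all 3 groups overlapped. Of its 3 tested genes, Cd3d (2.80, adjusted p = 0.014) and Cd3g (2.83, adjusted p = 0.0349) were higher in active CRHR1 than in Cre GFP bulbs. Cd3g was well above background on 4 active CRHR1, 3 knockout and 1 Cre GFP arrays. The same limit holds for its call, since only the active CRHR1 group brought it past the filter. Cd3d was also higher in active CRHR1 than in knockout bulbs (1.97, adjusted p = 0.0338), and Cd3e did not pass in any comparison.

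Of 6 astrocyte markers, 2 were higher in knockout than in Cre GFP bulbs, the water channel gene Aqp4 (0.34) and the glutamate transporter gene Slc1a3 (0.37). Gfap, an intermediate filament gene of reactive astrocytes, was higher in active CRHR1 bulbs, by 1.67 against knockout bulbs and 0.87 against Cre GFP bulbs. Slc1a3 was lower in active CRHR1 than in knockout bulbs (-0.55), and the connexin gene Gjb6 was lower in active CRHR1 than in Cre GFP bulbs (-0.35). The astrocyte list's mean lay between 2.89 and 3.27 in active CRHR1 bulbs, between 2.81 and 3.05 in knockout bulbs and between 2.89 and 3.08 in Cre GFP bulbs. Of 3 tested markers of cortical and anterior olfactory neurons, Tbr1 was lower in active CRHR1 bulbs, with changes of -0.37 against knockout bulbs and -0.49 against Cre GFP bulbs. Nrn1 was lower than in Cre GFP bulbs in active CRHR1 bulbs (-0.38) and in knockout bulbs (-0.30). Of 5 oligodendrocyte markers, 4 were lower in active CRHR1 than in knockout bulbs, and 2 of 7 granule cell markers were lower in active CRHR1 than in Cre GFP bulbs. The endothelial list's mean lay between 0.80 and 0.96 in active CRHR1 bulbs, between 0.84 and 1.01 in knockout bulbs and between 0.64 and 0.94 in Cre GFP bulbs. The choroid plexus list, whose cells are a known source of IGF-2 and IGFBP-2, lay between -2.93 and -2.42, between -2.71 and -1.60 and between -2.69 and -1.69 in active CRHR1, knockout and Cre GFP bulbs. All 7 granule cell and all 6 mitral and tufted cell markers of the bulb were tested. All 7 granule cell markers had a lower mean in active CRHR1 than in Cre GFP bulbs (median change -0.25). Etv1 was also lower in knockout than in Cre GFP bulbs (-0.34, adjusted p = 0.0205). Of the 6 mitral and tufted cell markers, 1 had a higher mean in active CRHR1 than in Cre GFP bulbs (median -0.18). The only call on that list was Uchl1, lower in this comparison (-0.31, adjusted p = 0.0449). Kcne2 of choroid plexus, Ly6c2 of monocytes and Cd8a and Trbc2 of T cells were too dim. The part of these shifts in the changes of the axis was not tested.

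**Figure D5:**
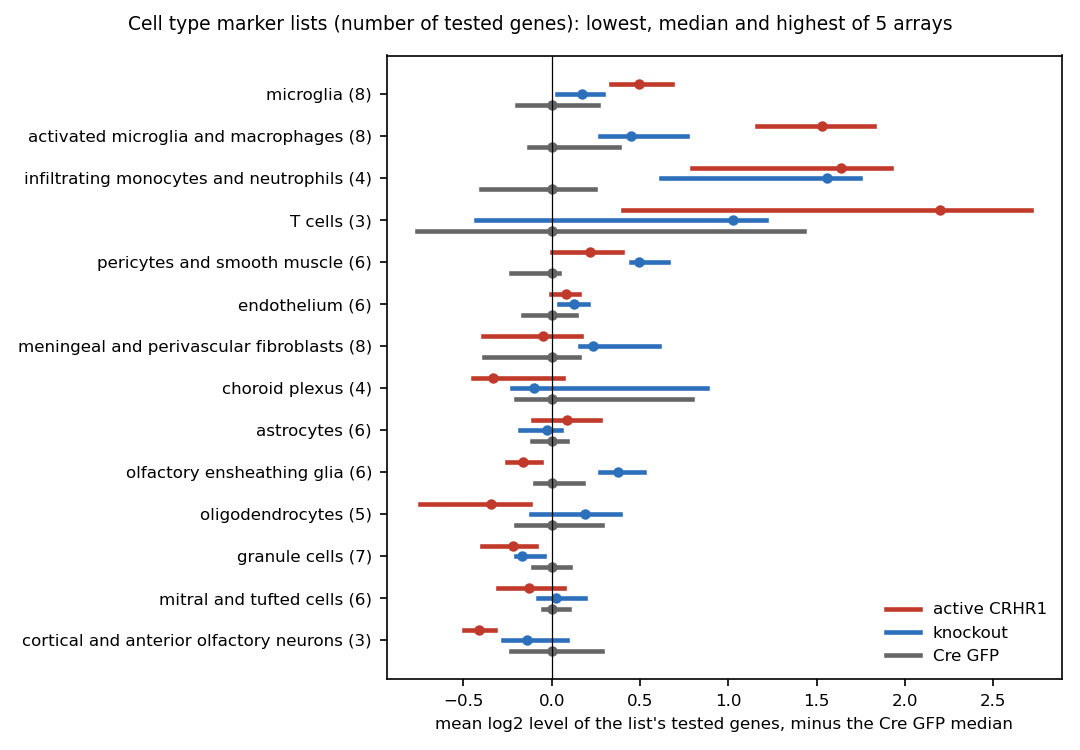
Mean log2 level of each cell type marker list on each array, minus the median of the Cre GFP arrays (horizontal axis): bars span the lowest to the highest of 5 arrays per group and points mark the median; the number of tested genes is in parentheses. For olfactory ensheathing glia and for pericytes the knockout bar lies to the right of both others, and for activated microglia the active CRHR1 bar does.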

How the data were processed

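Bulb RNA of 15 mice was labelled with Cy3 and hybridised to 1-colour Agilent arrays, per the labels' protocols. The deposited intensity values are spot signals from Agilent Feature Extraction 10.7.3.1, background-subtracted, per the file headers; probe coordinates are mm9. The authors' scaled values, a deposited table of intensity on a linear scale, served as an alternative; set against the scanner values, each column is the processed signal divided by that array's median over spots that are not controls (column medians 0.899 to 0.935). Each array's 75th percentile was subtracted from log2 of the processed signal, without spots flagged as outliers, and replicate spots were averaged. Probes had to clear the background on 4 or more of 5 arrays in some group (33968 of 55681 did), and the brightest of these by mean stood for its gene. Symbols were updated through RefSeq for 27509 probes, of which 2017 changed. Groups were compared with limma 3.58.1 in R 4.3.3 (lmFit, eBayes) over all 15 arrays, with Benjamini-Hochberg adjustment over 27441 genes. Precision is limited by the number of arrays. Whether mice shared a litter is not given in the labels. The genes and lists were chosen with earlier results of these data known. All 10 members are named in every comparison, related genes up to the 8 of smallest p (1 that the rule names is not reported here), markers up to the 3 of smallest p with exceptions stated, and 5 genes of like pattern for 4 members. Alternatives covered the filter, scaling, background, slide, replicate block, samples in the fit, probe choice and each array left out.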

Additional observations from a re-analysis of the deposited data

Results flagged for a closer look

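Single arrays stood apart from the other 4 of their group, by Dixon's test at the 95% level, in 4 of 48 sets of probe and group, where chance gives about 1 in 20. Igfbp5 read 3.07 on active CRHR1 replicate 2, against 3.25 to 3.31 on the other active CRHR1 arrays, and it was called in active CRHR1 against knockout bulbs in all 15 fits that left out 1 array. Igf1r read 1.84 on Cre GFP replicate 1, against 2.08 to 2.14 on the others. Igfbp6 read 4.72 on knockout replicate 5, against 4.30 to 4.41 on the others. The Igfbp7 probe read -6.71 on knockout replicate 3, against -7.98 to -7.83 on the others, all not well above background.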

How the results depend on the processing

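Igfbp5 was called in knockout against Cre GFP bulbs and in active CRHR1 against knockout bulbs under all 12 and 11 other settings and all 15 fits without 1 array. Igfbp2 was called in 6 of 12 settings in knockout against Cre GFP bulbs and 10 of 11 in active CRHR1 against knockout bulbs. Igfbp3 was called in 4 of 12 in knockout against Cre GFP bulbs, and Igfbp6 in 8 of 11 and Igf1 in 7 of 10 in active CRHR1 against knockout bulbs. Igfbp4 and Igf2, not called in the main fit, were called in 3 of 11 and 1 of 11 settings in active CRHR1 against knockout bulbs. The causes were not tested. Of the 9 genes, 1 was called in knockout against Cre GFP bulbs with no filter, median centring, the authors' values, slide as a fixed block, within slide 1 and with the replicate block, and 1 to 3 without 1 array. In active CRHR1 against Cre GFP bulbs 1 was called with slide as a fixed block (Igf1) and 0 to 2 without 1 array. In active CRHR1 against knockout bulbs 2 were called with median centring or the authors' values, 1 with slide as a fixed block, and 2 to 5 without 1 array (2 without active CRHR1 replicate 1). Over all genes, 914 calls in knockout against Cre GFP bulbs became 389 with no filter, 403 with median centring, 1396 with quantile normalization, 1571 with normexp, 453 with the authors' values, 389 with slide as a fixed block, 115 within slide 1, 560 with the replicate block, 494 with only these groups, and 431 to 956 without 1 array. In active CRHR1 against Cre GFP bulbs 2321 became 1225 with no filter, 1270 with median centring, 1265 with the authors' values, 1012 with slide as a fixed block, 329 within slide 2, 1517 with the replicate block, and 1182 to 3621 without 1 array. In active CRHR1 against knockout bulbs 7045 became 4269 with median centring, 4342 with the authors' values, 10683 with slide as a random block, 680 with it fixed, 6021 with the replicate block, and 4159 to 7950 without 1 array. The share of calls that were higher was 58.6% against 33% with median centring in knockout against Cre GFP bulbs, 46.1% against 56.3% in active CRHR1 against Cre GFP bulbs, and 36.7% against 48.6% in active CRHR1 against knockout bulbs. Changes that turned sign were near 0 and not called: Igf1 in knockout against Cre GFP bulbs (-0.0485 with median centring, -0.0127 with slide as a random block, -0.0835 to 0.0819 without 1 array), Igf1r there (0.00465 with slide as a fixed block and within slide 1), Igf2 in active CRHR1 against Cre GFP bulbs (-0.0624 with median centring, -0.0632 with the authors' values, -0.0282 with quantile normalization, -0.022 with normexp, -0.039 to 0.111 without 1 array), Igfbp4 there (-0.00038 with median centring, -0.00113 with the authors' values), Igfbp2 there (0.0271 with quantile normalization, 0.0209 with normexp), Igf2r in active CRHR1 against knockout bulbs (0.0145 with quantile normalization, 0.0139 with normexp, -0.032 to 0.027 without 1 array) and Igfbp3 there (-0.0735 with slide as a fixed block). The authors' values lack the probe that stood for Igf1. Same-numbered replicates had correlations of deviations between -0.22 and 0.41, over 0.1 in 3 of 15 pairs, and 4 of 15 arrays correlated best with their own number. These values show no clear pairing by replicate number, but they cannot exclude one. Signal over background limits Igfbp3 and Igfbp7. Among the related genes, Pappa2, Stc2 and Ins1 were also dim, though well above background on every array. Their group means lay between -4.51 and -3.68, between -4.30 and -3.48 and between -5.11 and -4.35.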
